A study of Homo sapiens with 10 samples.

Results

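The genes examined here encode the sensors of endoplasmic reticulum (ER) stress, the transcription factors and proteases that act with them, and the enzymes that fold proteins in the ER or remove those that fail to fold. They were chosen by name as a list of 38 genes, of which 37 were represented by 85 probe sets carrying that gene as their only symbol, out of 54675 probe sets on the array. SYVN1, an ER ubiquitin ligase gene, shares its probe set with a microRNA gene and was therefore not counted. Values were compared between 5 arrays of proliferating IMR90 cells at 28 population doublings and 5 arrays of senescent IMR90 cells at 90 population doublings. IMR90 is a normal diploid human fibroblast line from fetal lung. All cells were kept at 3% oxygen in DMEM with 10% serum, carried no labelled genetic change or drug treatment, and became senescent by repeated passage, after which the senescent dishes were held for another 2 weeks. Growth state, passage number and the 2-week hold therefore differ together, and nothing in the labels tells whether each array stands for its own culture. The p-values therefore reflect only the scatter among these samples, which may be technical.

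The ER folds and modifies secreted and membrane proteins. When unfolded proteins accumulate, the kinase and endonuclease IRE1 (gene ERN1) splices the XBP1 messenger RNA, the kinase PERK (EIF2AK3) phosphorylates the translation factor eIF2 and so favours translation of ATF4, and ATF6 travels to the Golgi, where the site-1 and site-2 proteases (MBTPS1, MBTPS2) release its transcription factor part. These branches are known to raise chaperones, disulfide-forming enzymes and the ER-associated degradation machinery, which extracts misfolded proteins for the proteasome. Much of this control acts through splicing, phosphorylation and proteolysis, which a transcript level does not report. In bulk RNA, fewer cells with a transcript and less transcript per cell cannot be told apart.

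The 10 arrays had medians of 3.05 to 3.12 in deposited log2 units, and their number limits the precision. All 10 fibroblast markers examined lay above the filter on low values, whereas 1 of 6 endothelial (TEK) and 1 of 4 leukocyte markers (PTPRC) did. Epithelial markers lay above it for 5 of 7 genes, with CDH1 and KRT8 failing it, and their mean log2 value was 5.58 to 5.66 on proliferating and 4.98 to 5.22 on senescent arrays. For smooth muscle markers, 5 of 6 passed, with means of 6.34 to 6.63 and 6.47 to 6.61. The part of these markers in the results below was not tested. The 3' minus 5' signal of the ACTB control, a sign of RNA integrity, was 2.07 ± 0.14 in proliferating and 2.32 ± 0.10 in senescent cells (SD, n = 5 each). The exact two-sided permutation p of this difference was 0.00794, the lowest p possible with 252 ways to assign the arrays. The ACTB values did not overlap (up to 2.19 in proliferating and from 2.24 in senescent cells). A fit with this control as a covariate therefore separates it poorly from growth state. For the GAPDH control the same signal was higher by 0.15 in senescent cells (exact two-sided permutation p = 0.13).

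Of the 36 list members that could be tested, 17 rose and 7 fell in senescent cells, and 12 did not pass the threshold. Each gene is represented here by its brightest tested probe set, and rose or fell is written where the adjusted p-value of limma, a linear model fitted across all genes, was below 0.05. Over all 12909 genes tested, 31% were called higher and 30.3% lower. The members' median log2 difference, senescent minus proliferating, was 0.12, beside 0.04 for all genes tested. At least 2-fold changes were seen in 6 members, all of them higher, against a background of 10% higher and 10.2% lower at that size. The 5 senescent and 5 proliferating values did not overlap in 20 of the 36 members, compared with 51.8% of all genes. With the ACTB control as a covariate 16 members rose and 5 fell.

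At the level of single probe sets, 73 of the 85 were tested, and 72 of these lay above the array's 40th percentile on all 10 arrays. Of the 73, 37 were higher and 15 lower, where 26.9% of all tested probe sets were called higher and 26.2% lower. Among 23 genes with several tested probe sets, 19 gave the same call with all of them, ERN1, DERL2 and CALR gave a call with some and none with others, and PDIA3 gave opposite calls. The 12 probe sets that were not tested had group means from 1.63 to 3.02, and they include all 3 of the derlin gene DERL3, which was therefore not tested.

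**Figure D1:**
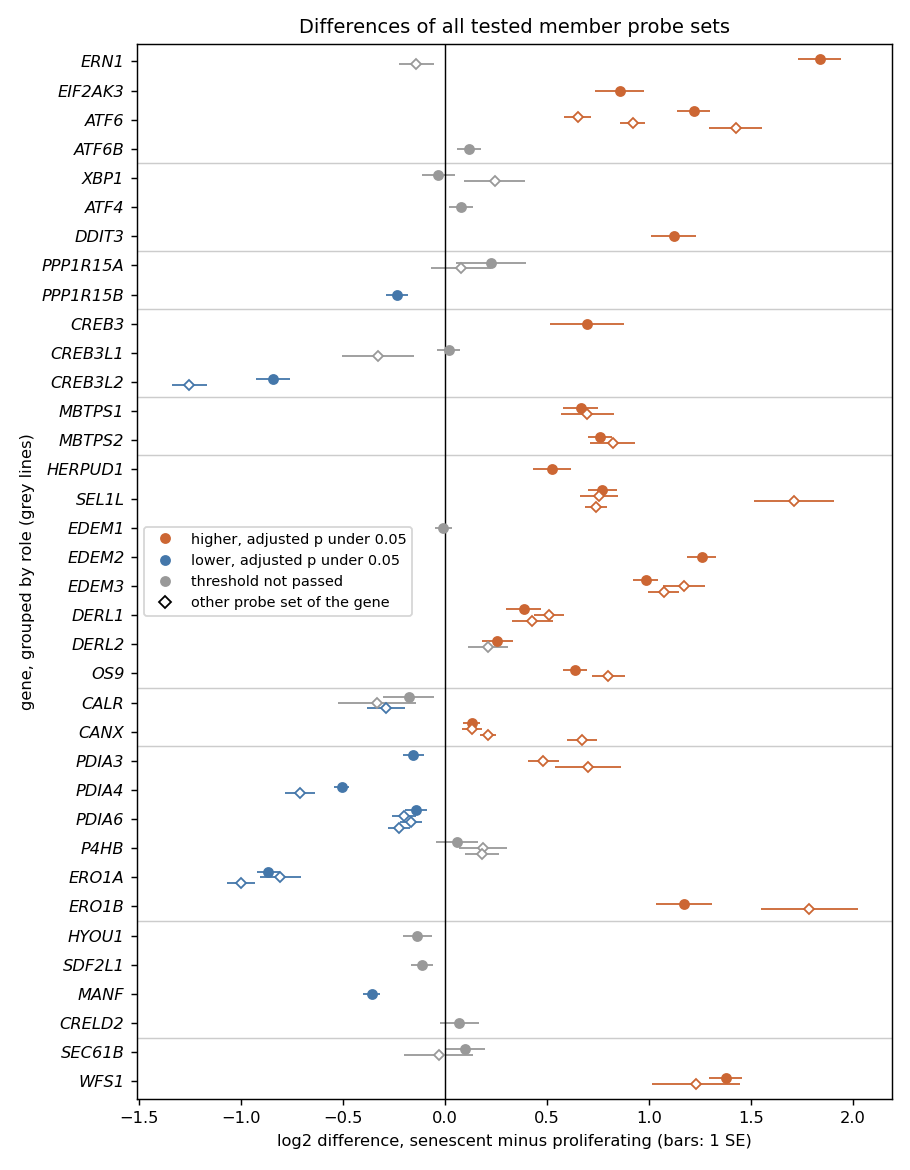
Log2 difference between 5 senescent and 5 proliferating arrays (horizontal axis) for every tested probe set of each gene (vertical axis), with bars of 1 SE, filled circles for the representing probe set and open diamonds for others. The representing probe sets of ERN1, ATF6, EDEM2, WFS1 and ERO1B lie to the right and those of CREB3L2 and ERO1A to the left. PDIA3 has called probe sets on both sides.

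Transcripts of 3 of the 4 stress sensors were higher in senescent cells, where 31% of all genes were called higher. ERN1, the gene of IRE1, had log2 values of 8.15, 7.92, 7.98, 7.78 and 7.63 on proliferating arrays 1 to 5 and of 9.61, 9.62, 9.94, 9.66 and 9.81 on senescent arrays 1 to 5. Every senescent value exceeded every proliferating one by more than a full log2 unit. ERN1 thus rose 3.57-fold, by 1.84 log2 units (SE 0.10, limma's adjusted p = 1.9e-07), more than any other member's representing probe set. A second probe set of ERN1 with low signal in both groups differed by -0.14 (adjusted p = 0.20), and the mean over both differed by 0.85 (adjusted p = 1.0e-05).

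ATF6, the gene of the sensor that is itself a transcription factor precursor, was measured by 4 probe sets that all rose without overlap. Its representing probe set read 9.04, 9.01, 9.31, 9.34 and 9.01 in proliferating cells and 10.47, 10.41, 10.34, 10.33 and 10.25 in senescent cells. The log2 differences of the 4 probe sets were 1.22, 0.65, 0.92 and 1.42 (limma's adjusted p at most 1.5e-05). EIF2AK3, the gene of PERK, read 8.22, 8.18, 8.50, 8.39 and 7.86 in proliferating cells and 8.86, 9.00, 9.16, 9.20 and 9.21 in senescent cells. The groups did not overlap, and EIF2AK3 rose 1.81-fold (by 0.86, SE 0.12, limma's adjusted p = 0.00015).

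The paralogue ATF6B lay close to the array's background. Its values were 3.32, 3.46, 3.45, 3.30 and 3.42 in proliferating cells and 3.46, 3.44, 3.44, 3.50 and 3.70 in senescent cells, and the groups overlapped. The difference of 0.12 did not pass (SE 0.06, limma's adjusted p = 0.14; 0.037 with arrays centred on housekeeping genes). At this signal a change in ATF6B may go unseen, so its difference is not set against that of ATF6.

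The transcription factor genes downstream of the sensors did not move together. DDIT3, which encodes the stress factor CHOP, read 6.97, 6.68, 6.73, 7.05 and 7.05 in proliferating cells and 8.12, 8.07, 8.25, 7.88 and 7.76 in senescent cells. All senescent values lay above all proliferating ones, and DDIT3 rose 2.17-fold (by 1.12, SE 0.11, limma's adjusted p = 1.2e-05). ATF4, the factor whose translation follows eIF2 phosphorylation, read 12.06, 11.79, 12.05, 11.97 and 11.86 in proliferating cells and 11.99, 12.05, 12.01, 12.01 and 12.07 in senescent cells. The ATF4 groups overlapped and differed by 0.08 (SE 0.06, limma's adjusted p = 0.29).

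XBP1, the transcript that IRE1 splices, read 9.22, 9.11, 9.40, 9.31 and 8.96 in proliferating cells and 9.04, 9.16, 9.21, 9.21 and 9.21 in senescent cells. The senescent values all fell inside the proliferating range, and the difference of -0.03 (SE 0.08, limma's adjusted p = 0.74) took the opposite sign with arrays centred on housekeeping genes or quantile normalised, and as the mean of its probe sets. No measure of XBP1 splicing was made from these values.

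**Figure D2:**
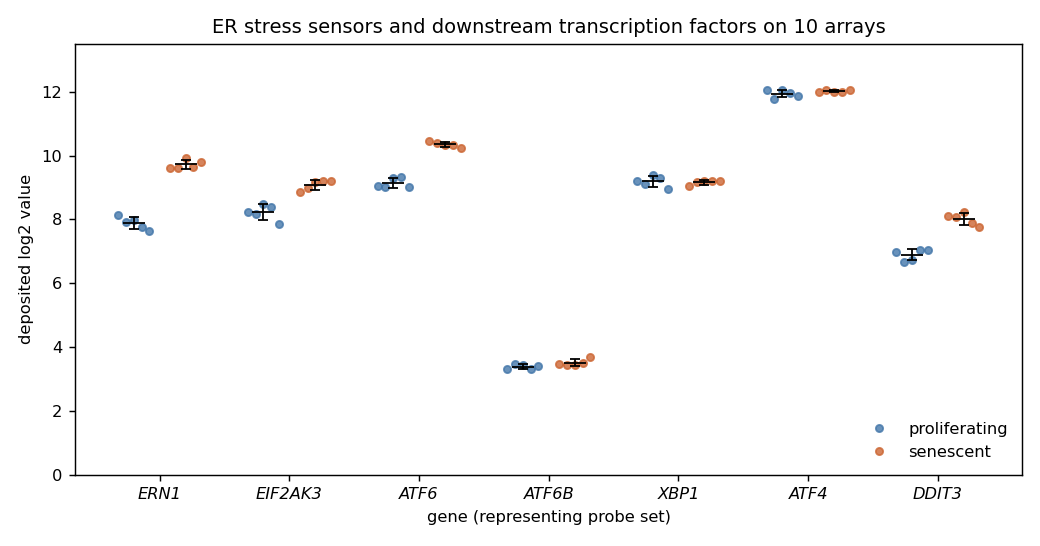
Deposited log2 values (vertical axis) of the 4 sensor genes and 3 downstream transcription factor genes (horizontal axis) on 5 proliferating and 5 senescent arrays, 1 point per array, with the mean and SD in black. The groups are apart for ERN1, EIF2AK3, ATF6 and DDIT3 and overlap for ATF6B, XBP1 and ATF4; heights of different genes are not comparable.

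Both proteases that cut ATF6 in the Golgi rose. MBTPS1, the site-1 protease gene, went from 9.67 ± 0.16 to 10.34 ± 0.12 (SD over 5 arrays each), which is higher by 0.67 (limma's adjusted p = 8.5e-05), which was 0.43 with the ACTB covariate (adjusted p = 0.0043). MBTPS2, the site-2 protease gene, went from 10.26 ± 0.06 to 11.02 ± 0.11 (SD over 5 arrays each), which is higher by 0.76 (limma's adjusted p = 2.1e-06). A second probe set of each gene gave 0.70 and 0.82, and none of the 4 probe sets overlapped between the groups.

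The CREB3 family, membrane-bound transcription factors cut by the same proteases, was split. CREB3 rose by 0.69 (SE 0.18, limma's adjusted p = 0.0085), from 8.84, 9.66, 8.61, 8.82 and 8.83 on the proliferating arrays to 9.69, 9.74, 9.53, 9.84 and 9.42 on the senescent ones. Proliferating array 2 alone reached the senescent range, and without it the difference was 0.87. With the ACTB covariate, which was lowest on that array, it was 1.17 (adjusted p = 0.0013).

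CREB3L2, known for its part in the secretory programme of cartilage, read 12.07, 11.78, 12.07, 12.06 and 12.15 in proliferating cells and 11.26, 11.32, 11.09, 11.24 and 11.01 in senescent cells. It fell by 0.84 on the log2 scale without overlap (SE 0.08, limma's adjusted p = 1.2e-05), and by 1.25 on its second probe set. CREB3L1, known for its part in collagen production of bone cells, differed by 0.02 (SE 0.06, adjusted p = 0.79), and by -0.16 as the mean of its probe sets (adjusted p = 0.21). Within arrays CREB3 shifted against CREB3L2 by 1.54, and CREB3L1 against CREB3L2 by 0.86 (exact permutation p = 0.00794 and adjusted p = 0.013 for each, over 10 pairs of related members). CREB3 shifted against CREB3L1 by 0.68 (exact permutation p = 0.032, adjusted p = 0.045), which did not pass without any 1 of 6 arrays. The 10 pairs were chosen after their values were seen, so these p-values add no support to the differences.

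The regulatory subunits that direct a phosphatase to eIF2 showed small measured differences. PPP1R15B, the constitutive subunit, fell by 0.23 without overlap (limma's adjusted p = 0.0040). With the ACTB covariate PPP1R15B differed by -0.22 (adjusted p = 0.073). PPP1R15A, the stress-induced subunit also known as GADD34, had low signal, with means of 4.17 in proliferating and 4.40 in senescent cells. It differed by 0.22 (SE 0.17, limma's adjusted p = 0.30), and at this signal a change may go unseen.

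Genes of ER-associated degradation rose in 7 of 8 tested cases, with none lower, where 31% of all genes were called higher. EDEM2, a protein of the family that trims mannose from misfolded glycoproteins, had values of 8.43, 8.29, 8.08, 8.24 and 8.20 in proliferating cells and of 9.39, 9.51, 9.64, 9.55 and 9.44 in senescent cells. The groups were almost a full log2 unit apart at their nearest values, and EDEM2 rose 2.39-fold (by 1.26, SE 0.07, limma's adjusted p = 1.9e-07). EDEM3 rose by 0.98, 1.17 and 1.07 on its 3 probe sets, the representing one from 10.82, 10.97, 10.89, 10.95 and 10.74 to 11.86, 11.80, 11.83, 11.78 and 12.01. EDEM1 did not follow. It read 9.98, 9.99, 10.00, 10.00 and 9.94 in proliferating cells and 10.03, 9.99, 9.92, 10.05 and 9.89 in senescent cells, a difference of -0.01 (SE 0.04, limma's adjusted p = 0.87) whose sign turned with either array centring. Within arrays EDEM2 and EDEM3 rose relative to EDEM1 by 1.27 and 0.99 (exact permutation p = 0.00794, adjusted p = 0.013 over the 10 pairs for each). These pairs were also chosen after their values were seen, so the p-values add no support to the differences.

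SEL1L, OS9 and HERPUD1, whose products work with the SYVN1 ligase, rose as well. SEL1L, the adaptor of the SYVN1 ubiquitin ligase, read 11.03, 10.75, 10.98, 11.09 and 10.87 in proliferating cells and 11.81, 11.67, 11.75, 11.73 and 11.62 in senescent cells. It rose by 0.77 (SE 0.07, limma's adjusted p = 5.8e-06), and its other 3 probe sets rose by 0.76, 1.71 and 0.74, the middle value from a probe set with low signal in proliferating cells. OS9, a lectin that presents trimmed glycoproteins to SEL1L, rose by 0.64 and 0.80 on its 2 probe sets (limma's adjusted p at most 1.5e-05). HERPUD1, a scaffold of the ligase complex, rose by 0.52 (SE 0.09, limma's adjusted p = 0.00079).

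The names of all probe sets of SEL1L, EDEM3 and OS9 mark them as possibly matching more than 1 transcript.

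The derlins, which help form the exit channel, rose by the smallest amounts. DERL1 rose by 0.39 (SE 0.09, limma's adjusted p = 0.0034), and by 0.51 and 0.43 on other probe sets, and its difference was 0.64 with the ACTB covariate. DERL2 rose by 0.26 (limma's adjusted p = 0.016) with overlap between the groups. This call was lost with the ACTB covariate (difference 0.30, adjusted p = 0.082). It was also lost without proliferating 2 and senescent 5 together (difference 0.20, adjusted p = 0.075).

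**Figure D3:**
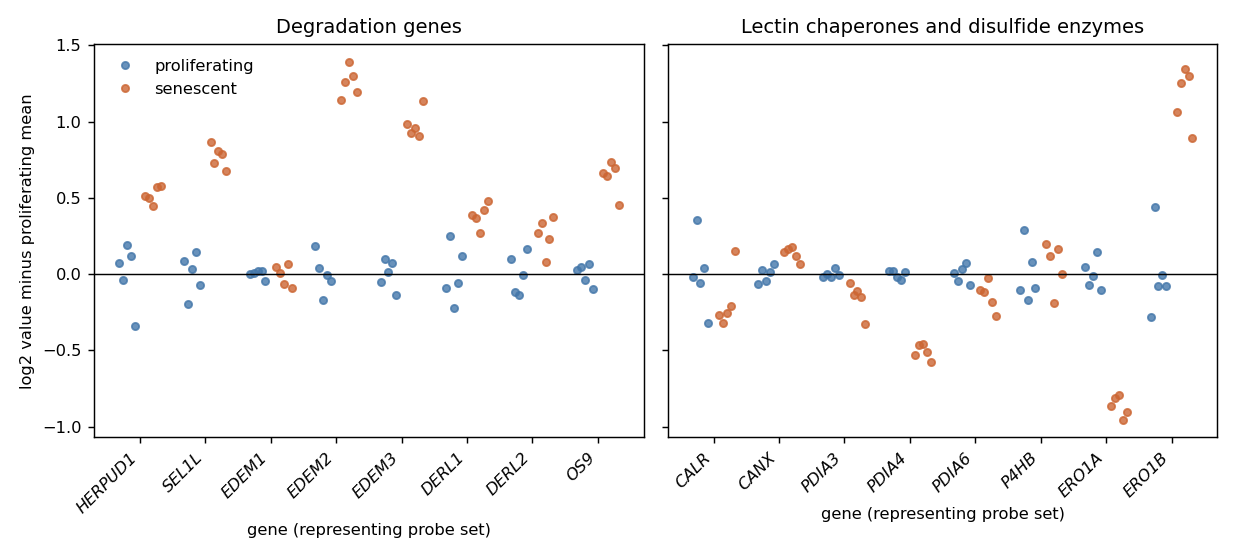
Log2 value minus the gene's mean over the 5 proliferating arrays (vertical axis) for each of the 10 arrays, 1 point per array, in 8 degradation genes (left) and 8 lectin chaperone and disulfide enzyme genes (right). Senescent points lie above all proliferating points for HERPUD1, SEL1L, EDEM2, EDEM3, DERL1, OS9 and ERO1B, and below them for PDIA3, PDIA4 and ERO1A.

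Among 6 genes of disulfide bond formation 4 fell and 1 rose, beside a background of 30.3% lower and 31% higher. The 4 include PDIA3, whose probe sets went both ways with a mean that rose by 0.34. They also include PDIA6, whose call was lost under many of the alternatives described below. ERO1A, the oxidase that recharges protein disulfide isomerase, read 12.45, 12.33, 12.39, 12.55 and 12.30 in proliferating cells and 11.54, 11.59, 11.61, 11.45 and 11.50 in senescent cells. It fell by 0.87 on the log2 scale (SE 0.06, limma's adjusted p = 5.5e-07), and by 0.81 and 1.00 on its other probe sets. The second oxidase gene, ERO1B, went the other way, from 6.29, 7.01, 6.49, 6.56 and 6.49 to 7.63, 7.82, 7.91, 7.87 and 7.46. ERO1B rose 2.25-fold (by 1.17, SE 0.14, limma's adjusted p = 3.8e-05), and by 1.79 on a second probe set with low signal in proliferating cells. The groups did not overlap for any probe set of either oxidase. Within arrays ERO1B moved against ERO1A by 2.04 (SE 0.16, exact permutation p = 0.00794, adjusted p = 0.013 over the 10 pairs). As this pair was chosen after both differences were seen, its p-values add no support to them.

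Of the 4 disulfide isomerases, PDIA4 and PDIA6 fell on all their probe sets, PDIA3 had probe sets in both directions and P4HB did not pass. PDIA4 read 13.14, 13.14, 13.10, 13.08 and 13.13 in proliferating cells and 12.59, 12.65, 12.66, 12.61 and 12.54 in senescent cells, a fall by 0.51 (SE 0.04, limma's adjusted p = 1.3e-06), and fell by 0.71 on a second probe set. No PDIA4 value of 1 group came near the other group. PDIA6 fell by 0.14 (adjusted p = 0.047), which did not pass with arrays centred on either median or quantile normalised, nor without any 1 of 8 arrays (all but proliferating 5 and senescent 3; adjusted p = 0.053 to 0.11). With the ACTB covariate it fell by 0.24 (adjusted p = 0.025). Its other 3 probe sets fell by 0.20, 0.17 and 0.22.

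PDIA3, the isomerase that works with the lectin chaperones, gave opposite calls. Its brightest probe set fell by 0.16 (adjusted p = 0.027), and 2 dimmer ones rose by 0.48 and 0.70 (limma's adjusted p = 0.00036 and 0.0042), none with overlap between the groups. The fall did not pass under any of the 3 other array scalings (adjusted p = 0.058 to 0.29), nor with the replicate number as a block (adjusted p = 0.064) or without proliferating array 4 (adjusted p = 0.062), and the mean over all 3 probe sets rose by 0.34. P4HB, the founding isomerase and also a subunit of collagen prolyl hydroxylase, differed by 0.06 (SE 0.10, adjusted p = 0.65; 0.33 with the ACTB covariate, adjusted p = 0.044).

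The lectin chaperones that hold folding glycoproteins differed little. CANX, calnexin, rose by 0.13 (adjusted p = 0.022) and by 0.13, 0.21 and 0.67 on other probe sets, with a mean of 0.29. The CANX call was lost with the replicate block (limma's adjusted p = 0.092) and with the ACTB covariate (difference 0.15, adjusted p = 0.11). Leaving out proliferating 1, proliferating 3 or senescent 3 also lost it (adjusted p = 0.055, 0.053 and 0.051). CALR, calreticulin, differed by -0.18 (SE 0.13, adjusted p = 0.26), and 1 of its 3 probe sets fell, by 0.29 (adjusted p = 0.024).

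Of the other 4 folding and stress-induced ER proteins on the list 1 fell and none rose, beside 30.3% lower and 31% higher over all genes. MANF, a secreted factor retained in the ER, fell by 0.36, from 11.49 ± 0.04 to 11.13 ± 0.07 (SD, n = 5 each, limma's adjusted p = 4.8e-05), without overlap. HYOU1, a large chaperone of the HSP70 family, differed by -0.14 (SE 0.07, adjusted p = 0.13; 0.039 without senescent array 5). SDF2L1 differed by -0.11 (SE 0.05, adjusted p = 0.11), and CRELD2 by 0.07 (SE 0.10, adjusted p = 0.56). A difference that misses the threshold does not show that the groups were alike.

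WFS1 and SEC61B are both ER membrane proteins. WFS1, the gene of wolframin, which is mutated in Wolfram syndrome, had values of 10.05, 10.10, 9.87, 9.85 and 9.65 in proliferating cells and of 11.37, 11.29, 11.25, 11.28 and 11.21 in senescent cells. It rose 2.60-fold without overlap (by 1.38, SE 0.08, limma's adjusted p = 2.7e-07), and by 1.23 on a second probe set. SEC61B, a subunit of the protein-conducting channel, differed by 0.10 (SE 0.09, adjusted p = 0.40).

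Promoters were examined for the elements through which ATF6 and spliced XBP1 are known to act, because calls differed among the genes these branches are known to raise. Most degradation genes on the list rose with the sensors, whereas several of its folding genes fell or did not pass. The wider lists described below did not show this contrast. There 20 of 34 other folding genes rose and 6 fell (median 0.32), and 15 of 29 other degradation genes rose and 6 fell (median 0.19). Windows from 250 bases before to 50 after a transcript start came from RefSeq (build GRCh38.p14) and covered 35 of the 38 members. The ER stress element was searched as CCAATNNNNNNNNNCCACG and its variant ERSE-II as ATTGGNCCACG, on both strands and without mismatches. The first occurred in 0.0769% and the second in 0.0541% of all 35116 windows. Members with an exact match were CALR, CANX, CRELD2, ERO1B, PDIA6 and XBP1 for the first and HERPUD1, HYOU1 and SDF2L1 for the second. The sequences below are those of members whose transcript did not pass the threshold (XBP1, CRELD2, CALR, SDF2L1, HYOU1) and of 2 that rose (ERO1B, HERPUD1). They run 5′ to 3′ on the strand of the gene, with the fixed letters of the match in capitals, read as their reverse complement where the element lies on the opposite strand.
XBP1 chr22:28800582-28800642 (- strand): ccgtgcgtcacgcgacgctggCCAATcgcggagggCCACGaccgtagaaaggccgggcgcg
CRELD2 chr22:49918533-49918593 (+ strand): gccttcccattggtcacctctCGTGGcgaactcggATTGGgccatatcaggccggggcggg
CALR chr19:12938363-12938423 (+ strand): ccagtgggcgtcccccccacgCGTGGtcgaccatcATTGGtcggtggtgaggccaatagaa
ERO1B chr1:236282162-236282208 (- strand): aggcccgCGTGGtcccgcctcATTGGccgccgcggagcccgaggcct
HERPUD1 chr16:56932000-56932060 (+ strand): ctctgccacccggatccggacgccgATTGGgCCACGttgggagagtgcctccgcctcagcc
SDF2L1 chr22:21642089-21642149 (+ strand): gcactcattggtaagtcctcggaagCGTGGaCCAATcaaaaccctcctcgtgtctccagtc
HYOU1 chr11:119057249-119057309 (- strand): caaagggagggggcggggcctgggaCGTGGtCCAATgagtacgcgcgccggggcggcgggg
HYOU1 chr11:119057355-119057415 (- strand): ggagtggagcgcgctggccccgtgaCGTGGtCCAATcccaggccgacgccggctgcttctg

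The XBP1 match began 52 bases before the start, that of CRELD2 80, those of HYOU1 79 and 185, that of HERPUD1 117, that of SDF2L1 188, that of CALR 225 and that of ERO1B 243. The third element searched, UPRE (TGACGTGG), was present in 0.729% of windows and among members in HYOU1, where it overlaps the ERSE-II match at 185. Of the 9 members with an exact ERSE or ERSE-II, 3 rose (ERO1B, HERPUD1 and CANX), 1 fell (PDIA6) and 5 did not pass, with a median difference of -0.03. Of the 25 tested members whose windows hold no exact match of either, 13 rose, 5 fell and 7 did not pass, with a median of 0.26. Over all genes 31% were called higher and 30.3% lower, so the 3 of 9 lie near the background, and no difference between members with and without a match was tested. The latter include ERN1, ATF6, EDEM2, WFS1 and DDIT3. Among all tested genes, 16 had the first element, of which 4 rose, 3 fell and 9 did not pass, and 13 had the second, of which 3 rose, 4 fell and 6 did not pass. These counts include the members. A match is a description of letters in the window, and its absence says nothing about binding elsewhere. Elements with mismatches inside a window were counted as absent, so the split is not one of genes with and without a working element.

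Other genes of the same pathways were taken from 7 lists and compared in the same way. Each count below stands against 31% higher and 30.3% lower over all genes tested, and no list was tested as a set. Of 34 tested ER chaperones and folding enzymes outside the list, 20 rose and 6 fell (median 0.32). The largest differences were those of CRELD1, a relative of CRELD2 (2.30), DNAJB9, a cochaperone that acts on IRE1 (1.75), and the prolyl isomerase gene FKBP14 (1.23), each with a limma adjusted p of 1.3e-06 or less. HSPA5, which encodes the chaperone BiP and was named after its value was seen, differed by -0.14 (limma's adjusted p = 0.010). It did not pass with quantile normalisation (-0.08, adjusted p = 0.068) or with housekeeping centring (-0.09, adjusted p = 0.24). The housekeeping genes were themselves lower in 9 of 18 cases and higher in 4, and centring on them moved differences upward. The 6 lower genes became 2 with the ACTB covariate, under which 16 rose and the median was 0.16, and 3 with housekeeping centring.

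Machinery of entry into and exit from the ER was mostly higher. Of 33 tested genes of the translocon, signal peptidase and oligosaccharyltransferase 21 rose and 5 fell (median 0.27), led by the signal peptidase gene SEC11C (1.43), TRAM1 (1.26) and SEC62 (0.86), which help chains through the channel. The 5 lower genes were 3 with housekeeping centring and also 3 with the replicate block. Of 22 genes of ER exit and retrieval 15 rose and none fell (median 0.28; 12 and 0 with the ACTB covariate). The cargo receptor subunit MCFD2 (0.94), the coat gene SEC23B (0.72) and KDELR3 (0.63), a receptor that returns escaped ER proteins, were the largest. The SEC23B call was lost under the ACTB covariate (difference 0.58, limma's adjusted p = 0.13).

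Of 29 other degradation genes 15 rose and 6 fell (median 0.19; 0.29 with the ACTB covariate, where 12 rose and 5 fell, and 0.33 without proliferating 2 and senescent 5), with the ER mannosidase gene MAN1B1 (1.22) and the lectin gene ERLEC1 (0.97) highest and the oxidoreductase gene FOXRED2 (-2.27) lowest. Among 11 genes of eIF2, its exchange factor and its other kinases 3 rose and 2 fell (median -0.08), neither share above that of all genes. EIF2B2 and EIF2S1 fell by 0.70 and 0.42, and the amino acid sensing kinase gene EIF2AK4 rose by 0.42. With the ACTB covariate 1 rose and 3 fell (median -0.05), and with housekeeping centring the median was -0.02.

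Known targets of ATF4 and CHOP went both ways, with 9 of 24 higher and 12 lower (median -0.22). The higher share was close to the 31% of all genes, and the lower share was above the 30.3% of all genes. The stress factor gene ATF3 rose by 2.11, and the serine synthesis gene PHGDH and the asparagine synthetase gene ASNS fell by 2.75 and 1.72, each with a limma adjusted p of 1.8e-05 or less. With the ACTB covariate 5 rose and 11 fell. Of 11 other regulators and partners of the sensors 5 rose and 4 fell (median 0.03, but -0.03 without proliferating 2 and senescent 5, 0.08 with housekeeping centring and 0.05 with the ACTB covariate or quantile normalisation). CREBRF, whose product restrains CREB3, rose by 2.67, DDRGK1 of the UFM1 conjugation pathway rose by 1.31, and NFYB, a subunit of the factor that binds CCAAT boxes, fell by 1.12.

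**Figure D4:**
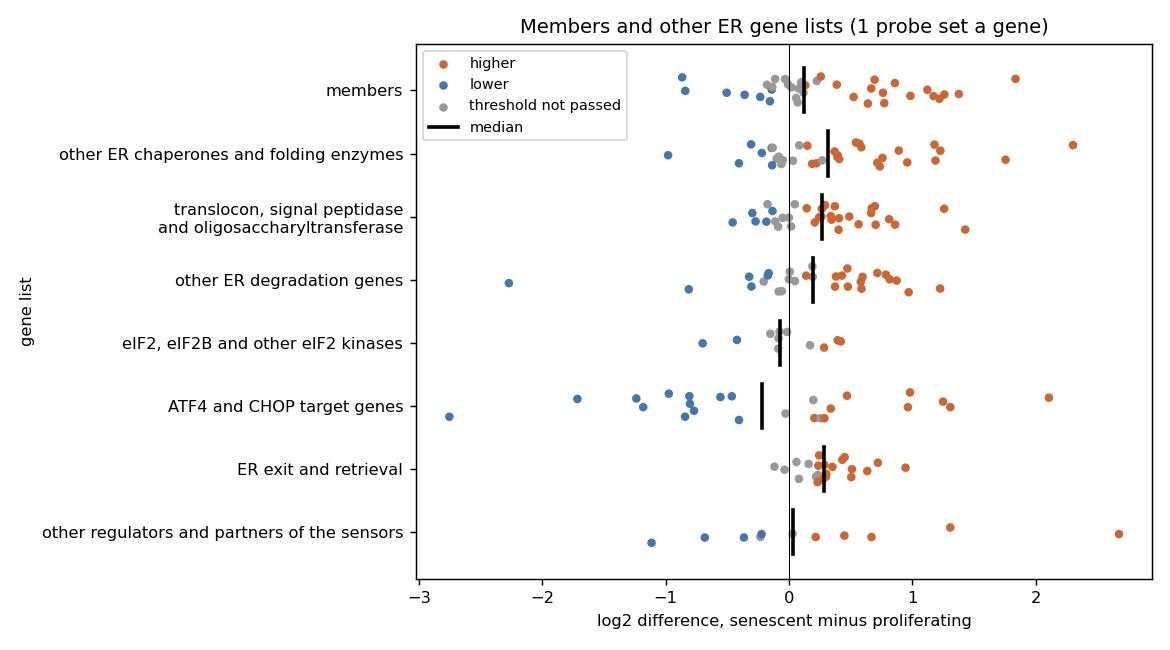
Log2 difference, senescent minus proliferating (horizontal axis), for each tested gene of the members and of 7 other ER gene lists (vertical axis), 1 point per gene coloured by its call, with the list median as a black bar. Points of ER exit and retrieval lie mostly right of 0 with no lower call, and those of ATF4 and CHOP targets spread from -2.75 to 2.11.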

How the data were processed

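Total RNA extracted with Trizol was biotin-labelled and hybridised to Affymetrix arrays, 5 proliferating and 5 senescent, per the labels' protocols. The authors deposited 1 log2 value per probe set and array. Partek and GCRMA, which corrects background and summarises probes, appear in the submitters' processing notes; versions and settings were not given in the sources used here. That the logarithm has base 2 was inferred from the values' range. Detection calls and scan batches were not used here.

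Probe sets were named from the platform annotation, with symbols updated through gene identifiers of RefSeq (assembly GRCh38.p14). Of 54675 probe sets, 62 controls were left out, 41091 had 1 symbol (41037 updated by identifier) and 1801 several. Tests covered the 32732 probe sets that exceeded the 40th percentile of the array on 5 or more arrays. Senescent and proliferating means were compared in a two-sided limma test (version 3.58.1, lmFit followed by eBayes, in R 4.3.3, read with the data.table package at 1.17.8), with Benjamini-Hochberg adjustment over all 32732 probe sets, threshold 0.05. Adjusted p-values of members come from this fit. Counts of genes, and p-values of genes outside the list, come from the same fit with the brightest tested probe set of each of 12909 genes. Permutation tests were exact and two-sided. Members, lists and tests were chosen with earlier results of these data known. All members are named; values on all arrays are given for sensors, downstream factors and called members of at least 2-fold, and for others chosen after their values were seen. Of each other list up to 3 called genes with the largest differences are named.

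Alternatives were no filter, a 60th percentile filter, 3 scalings, array weights, a trended robust eBayes, the replicate number as a block, exclusion of probe sets named as shared, averaging all tested probe sets per gene, the ACTB covariate, each array left out and 4 against 4 arrays. The fit was tested on simulated data. Plots were drawn in matplotlib 3.10.9 (Python 3.11.15, pandas 2.3.3, numpy 2.4.6).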

Additional observations from a re-analysis of the deposited data

Results flagged for a closer look

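In 7 of 72 groups of 5 arrays (36 members, 2 groups each), 1 array stood apart from the other 4 by more than 0.71 of the group's range, which chance alone does in about 1 of 20 groups. The gap as a share of the range was 0.784 for CREB3 on proliferating array 2 (9.66, others 8.61 to 8.84) and 0.745 for CREB3L2 on the same array (11.78, others 12.06 to 12.15). It was 0.797 for PDIA3 on proliferating array 4 (13.97, others 13.91 to 13.93). On senescent array 5 it was 0.755 for ATF6B (3.70, others 3.44 to 3.50) and 0.765 for CALR (12.95, others 12.48 to 12.59). On senescent array 1 it was 0.713 for XBP1 (9.04, others 9.16 to 9.21) and 0.763 for SDF2L1 (6.56, others 6.67 to 6.70).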

How the results depend on the processing

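Of 24 called members, 19 kept their direction and call under each alternative that gave them a value, and PPP1R15B, DERL2, CANX, PDIA3 and PDIA6 lost it under at least 1. Of the 19, CREB3, HERPUD1, SEL1L, EDEM3 and OS9 have no value without probe sets named as shared. In that setting 42 member probe sets were tested, of which 19 were higher and 7 lower, and 12 of 29 members rose and 7 fell. With arrays centred on housekeeping genes 9 member probe sets were lower, beside 15 without that centring. Of the 18 tested housekeeping genes 9 were lower and 4 higher in senescent cells (median -0.15), so this scaling is not neutral and moved differences upward. With the replicate block 36 member probe sets were higher and 13 lower, and 16 members rose and 5 fell. The CANX, PDIA3 and PDIA6 calls (adjusted p = 0.092, 0.064 and 0.066) were lost with it and no other member's call. Same-numbered arrays did not deviate together (correlations -0.057 to 0.091; 2 of 5 arrays correlated best with their own number), so the numbers were not taken as pairs. Leaving out 1 array gave 35 to 38 higher and 12 to 15 lower probe sets, 17 to 18 higher and 5 to 7 lower genes, and an ACTB control difference of 0.20 to 0.28. The gene counts come from the fit over genes, so they can keep a member whose call was lost in the fit over probe sets.

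Averaging all tested probe sets of a gene, chosen for single members after seeing the data, turned the called member PDIA3 to 0.34 (adjusted p = 0.0012), and XBP1 to 0.10 and CREB3L1 to -0.16, both without a call. All other turned signs belong to members without a call: EDEM1 at 0.023 and 0.047 with centring on tested probe sets and housekeeping genes and 0.0095 with array weights; XBP1 at 0.023 with housekeeping centring and 0.00021 with quantile normalisation; ATF4 at -0.033, CALR at 0.053 and CRELD2 at -0.029 with the ACTB covariate; and CREB3L1 at -0.024, EDEM1 at 0.014 and SEC61B at -0.014 in 4 against 4 arrays. With 1 array left out XBP1 ranged from -0.091 to 0.017, CREB3L1 from -0.011 to 0.049 (-0.0031 without proliferating 3) and EDEM1 from -0.027 to 0.012 (0.0059 without senescent 3). The causes were not tested. HYOU1 passed with array weights (adjusted p = 0.0496), and in 4 against 4 arrays (adjusted p = 0.037). Probe sets near background, such as those of ATF6B and PPP1R15A, limit what can be seen of these genes.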
